A study of Rattus norvegicus with 6 samples.

Results

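Cdh2, the gene of N-cadherin, and Ptk2b, the gene of the calcium-responsive tyrosine kinase Pyk2, were read by 1 probe each on arrays of pancreatic islet RNA from 2 rat strains. They are 2 of the 38 genes that could be named through RefSeq among probes that for the most part target piRNAs, and their 2 probes are among 39886 non-control probes. Both were picked out by accession, NM_031333 for Cdh2 (probe A_44_P349475) and NM_017318 for Ptk2b (probe A_44_P482346), and no other probe carried either accession. Islets came from Goto-Kakizaki (GK) rats, a lean strain with type 2 diabetes that was selectively bred from Wistar stock, and from Wistar rats, all 3 months old. The labels give no treatment or engineered allele for either strain, and state that RNA was extracted from each islet sample individually. There were 3 GK and 3 Wistar samples on 1 array each, and nothing in the labels says that a sample is a single animal. GK 1 shared slide 1 with the 3 Wistar arrays, and GK 2 and GK 3 lay on slide 2.

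N-cadherin is a transmembrane adhesion protein whose outer part binds N-cadherin on the neighbouring cell in the presence of calcium. Its inner part binds catenins, which tie it to the actin cytoskeleton, and N-cadherin and E-cadherin are both found at contacts between islet endocrine cells. Pyk2 is a non-receptor tyrosine kinase and the closest relative of focal adhesion kinase. It phosphorylates itself after a rise in cell calcium or integrin engagement, and the new phosphotyrosine recruits Src family kinases.

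The genes were chosen with the GK and Wistar values of these arrays already known, so the strain differences below are a description and carry no p-value. Of 50 other adhesion genes listed (cadherins, catenins, focal adhesion proteins, integrins and Pyk2 partners), 0 had a named probe on the array. Of 33 markers of islet endocrine cells, exocrine cells, vessels, stroma, immune cells and nerve, 0 had one either, so the labelled tissue could not be checked against its markers. In bulk islet RNA, fewer cells of a type and less RNA per cell cannot be told apart. The sequence and strand of the probes are not given in the sources used here, nor is the part of the transcript they read. RNA was labelled at its 3′ end without copying into cDNA, per the labels' protocols, so a signal may come from whole transcripts or from fragments.

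Each probe was printed in 10 spots spread over the array, and each of the 120 spots of the pair was well above background and none was saturated.

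The Cdh2 signal was lower in GK islets. Its mean processed signal, the background-subtracted brightness in scanner units before any scaling between arrays, was 70.9, 64.6 and 98.6 on GK 1, 2 and 3, against 283, 119 and 224 on Wistar 1, 2 and 3. Before scaling, the brightest GK array lay below the dimmest Wistar array. The same held, unscaled, for 1494 of the 11358 probes that passed the detection filter given below. The GK arrays averaged 78.1 ± 18.1 and the Wistar arrays 209 ± 83.4 in these units (SD, n = 3 each).

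The same separation was seen spot by spot. At 10 of the 10 grid positions, each GK spot that carried no outlier flag was dimmer than each Wistar spot in these unscaled units. After scaling between arrays this held at 1 of the 10 positions. The largest unflagged GK spot signal was 111 on GK 3, and the smallest Wistar spot signal was 99.7 on Wistar 2, so the strains touched only when spots of different positions were set against each other. Part of the spread between spots belonged to the position. The spot in grid row 69 lay below its array's mean in 5 of 5 arrays where it was unflagged, by 0.20 on the log2 scale on average. The spot in grid row 119 lay above its array's mean in 6 of 6 arrays, by 0.14. The 10 spots share one RNA sample per array and are technical repeats.

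**Figure D1:**
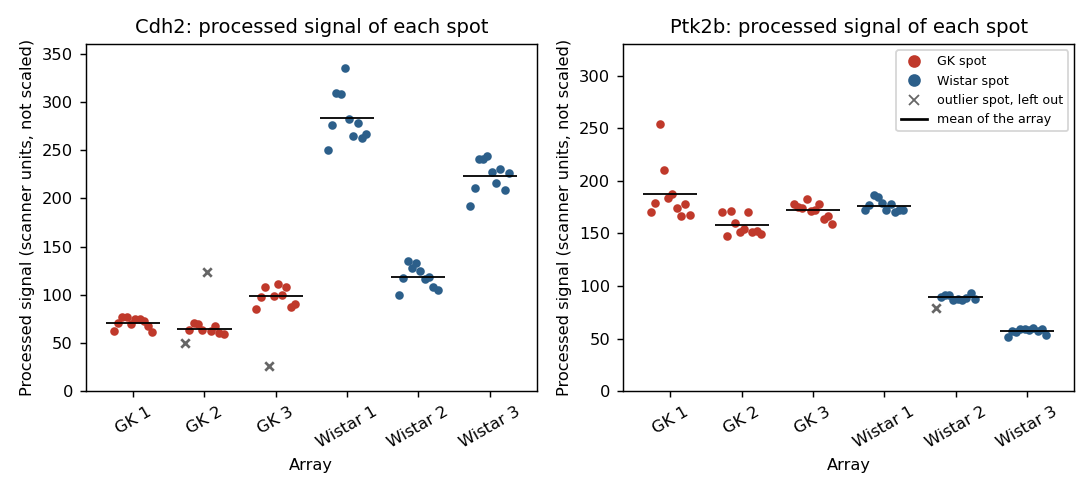
Processed signal (y axis, scanner units, not scaled) of each of the 10 spots of the Cdh2 probe (left) and the Ptk2b probe (right) on the 6 arrays, GK in red and Wistar in blue, with crosses for outlier spots and a line at each array's mean. Cdh2 array means lie between 64.6 and 98.6 in GK and between 119 and 283 in Wistar, whereas Ptk2b on Wistar 1 (176) sits among the GK means (158 to 187).

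Scaling between arrays closed the gap for Cdh2. Arrays were put on one scale by subtracting, on the log2 scale, the 75th percentile of those 7795 probes that exceeded background clearly on each of the 6 arrays. That percentile was 200, 151 and 142 signal units on the GK arrays and 239, 197 and 202 on the Wistar arrays, so scaling raised the GK mean relative to the Wistar mean, through GK 2 and GK 3 for the most part. The scaled log2 signal of Cdh2 was then -1.50, -1.23 and -0.53 on GK 1, 2 and 3, against 0.24, -0.74 and 0.14 on Wistar 1, 2 and 3. GK 3 stood above Wistar 2 by 0.21, and the other 8 of the 9 pairs of a GK and a Wistar array had the GK value lower. The GK mean was -1.08 ± 0.50 and the Wistar mean -0.12 ± 0.54 (SD, n = 3 each). The log2 difference, GK minus Wistar, was -0.97 (SE 0.42), or 1.96-fold lower in GK.

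The Ptk2b signal was higher in GK islets on the scaled values. Its mean processed signal before scaling was 187, 158 and 172 on GK 1, 2 and 3, against 176, 89.3 and 57.1 on Wistar 1, 2 and 3. Here the unscaled strains overlapped, because Wistar 1 exceeded GK 2 and GK 3. The GK arrays averaged 172 ± 14.7 and the Wistar arrays 108 ± 61.7 (SD, n = 3 each).

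After scaling, the Ptk2b log2 signal was -0.10, 0.06 and 0.28 on GK 1, 2 and 3, against -0.44, -1.14 and -1.82 on Wistar 1, 2 and 3. Every GK array then lay above every Wistar array, with a gap of 0.33 between GK 1 and Wistar 1. At 10 of 10 grid positions the scaled GK spots also lay above the Wistar spots of that position, whereas before scaling this held at 0 of 10. The GK mean was 0.08 ± 0.19 and the Wistar mean -1.13 ± 0.69 (SD, n = 3 each). The log2 difference was 1.21 (SE 0.42), or 2.32-fold higher in GK.

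All GK arrays stood above all Wistar arrays for 1415 of the 11358 probes that passed the filter and had a value on every array (12.5%), and below them for 592 (5.21%). The filter asked for a call well above background on 3 or more of the 6 arrays. That balance turned with the scaling, to 354 above and 1494 below without scaling, 229 and 1920 with every non-control probe in the percentile, and 155 and 3031 with scaling on the other named transcript probes. The values of this contrast were known when the genes were chosen, so nothing is read from the separation of Ptk2b. In the limma fit of all 11407 tested probes, 5 (0.0438%) passed an adjusted p of 0.05, and 1233 had an unadjusted p under 0.05. With the slide as a block limma called 0 and 417 had an unadjusted p under 0.05, fewer than the share of 0.05 expected if no probe differed. Without GK 1 it called 21, and without any one of the other 5 arrays 0, with 597 to 1306 at an unadjusted p under 0.05.

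**Figure D2:**
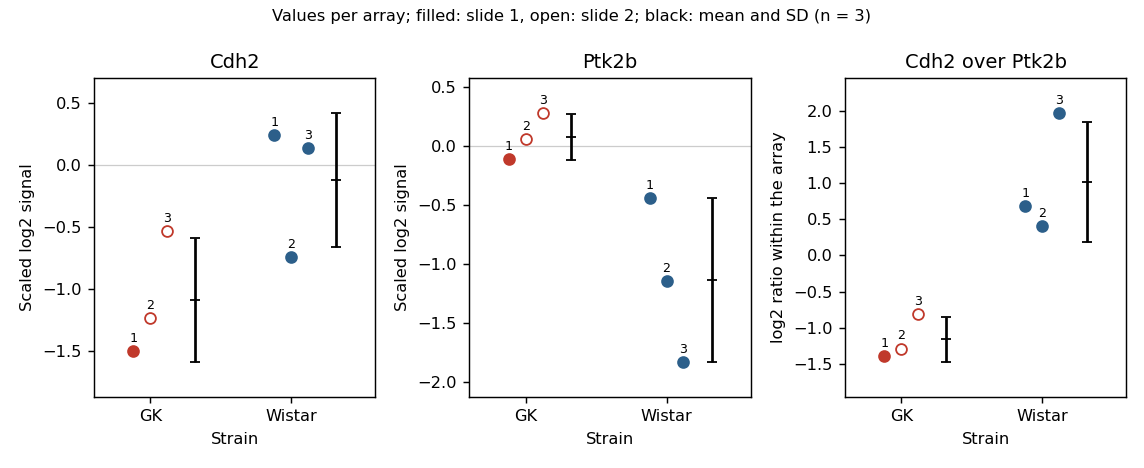
Scaled log2 signal per array of Cdh2 (left) and Ptk2b (middle), and the log2 ratio of their signals within each array (right), by strain, with the replicate number at each point, filled points for slide 1, open points for slide 2, and the mean and SD (n = 3) in black. GK 3 lies above Wistar 2 for Cdh2, and the strains are apart for Ptk2b (gap 0.33) and for the ratio (gap 1.21).

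The order of the 6 arrays differed between the genes. For Cdh2 it was, upward, GK 1, GK 2, Wistar 2, GK 3, Wistar 3 and Wistar 1. The step between Wistar 3 and Wistar 1 was 0.10, which is smaller than the SD between the spots of those arrays (0.12). The step between GK 3 and Wistar 2, where the strains cross, was 0.21, or 1.46 times the spot SD of that pair of arrays (0.14). The other steps of Cdh2 were between 2.61 and 5.36 times the spot SD of the arrays concerned. The spot SD is that of single spots, and the mean of an array's spots is steadier. Part of it also belongs to the spot position, which the arrays share. These ratios, and those of Ptk2b below, are therefore no test of whether arrays differ.

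For Ptk2b the order was, upward, Wistar 3, Wistar 2, Wistar 1, GK 1, GK 2 and GK 3. The Wistar arrays were far apart, with steps of 0.68 and 0.70, or 11.8 and 16.4 times the spot SD of the arrays concerned. GK 1 stood 0.33 above Wistar 1, and between the GK arrays the steps were 0.16 and 0.22. The step between GK 1 and GK 2 was 1.14 times their spot SD. GK 1 held the most uneven set of Ptk2b spots, from 166 to 254 signal units, with a coefficient of variation of 14.3%. On the other 5 arrays that coefficient ran from 2.82% to 5.89%.

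On the scaled values the spread between arrays of a strain was unlike for the genes. For Cdh2 it was similar in both, with the highest array 1.96 times the lowest in GK and 1.97 times in Wistar after scaling. For Ptk2b the highest array was 1.31 times the lowest in GK and 2.62 times in Wistar. Over all tested probes the median log2 SD was 0.36 for GK and 0.34 for Wistar, so the Ptk2b SD was below that median in GK (0.19) and above it in Wistar (0.69). The spreads depended on the scaling. Without scaling the Cdh2 SD was 0.32 in GK and 0.65 in Wistar, and the Ptk2b SD 0.12 and 0.82. With every non-control probe in the percentile, the SD was 0.78 and 0.58 for Cdh2, and 0.54 and 0.74 for Ptk2b. The difference between these spreads was not tested.

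The slide values ran the same way as the pooled ones. Within slide 1 the log2 difference of Cdh2 between GK 1 and the Wistar mean was -1.38, and GK 1 lay below each of the 3 Wistar arrays. GK 2 and GK 3, on slide 2, differed from the Wistar mean by -0.76. For Ptk2b the difference was 1.03 on GK 1 within slide 1, above each of the 3 Wistar arrays, and 1.30 on GK 2 and GK 3. Slide 2 holds GK samples only, so it gives no strain difference of its own. Leaving out each array in turn kept the Cdh2 difference between -1.28 and -0.76 and the Ptk2b difference between 0.87 and 1.56.

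Local background was slightly higher on slide 2. Its median around the Cdh2 spots was 19, 22 and 21 on the GK arrays and 19, 18 and 18.5 on the Wistar arrays. Around the Ptk2b spots it was 19, 21 and 20 in GK and 19, 18 and 19 in Wistar. The median Cdh2 spot was 4.86 to 6.43 times as bright as its local background on the GK arrays and 9.08 to 16.5 times on the Wistar arrays. The Ptk2b spots were 9.52 to 11.6 times as bright in GK and 4.86 to 11.6 times in Wistar. The part of this background in either difference was not tested.

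Outlier spots were few. For Cdh2, GK 2 had 2 flagged spots, at 50.6 and 124 signal units, and GK 3 had 1, at 26.0. For Ptk2b, Wistar 2 had 1, at 79.3. With these 4 spots kept, the log2 difference was -1.01 for Cdh2 and 1.22 for Ptk2b, and GK 3 and Wistar 2 came within 0.02 of each other for Cdh2.

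Whether the strains overlapped depended on how the arrays were scaled for both genes. Without scaling, and with scaling on the other named transcript probes, all GK arrays lay below all Wistar arrays for Cdh2, with log2 differences of -1.35 and -1.45. The same held for 1494 and 3031 of all 11358 probes under these settings, against 592 in the main setting, so nothing is read from this separation. For Ptk2b the strains overlapped without scaling and with scaling on the transcript probes, with log2 differences of 0.83 and 0.73. Both genes overlapped when every non-control probe entered the percentile (-1.45 for Cdh2 and 0.73 for Ptk2b). With normexp background correction, quantile normalization, outlier spots kept or the median of spots, the GK arrays of Ptk2b remained above the Wistar arrays. So did those of 2573, 741, 1421 and 1419 of all probes, in the same order. The sign of the log2 difference was the same in all 7 settings for each gene. Differences ran from -1.45 to -0.62 for Cdh2, and from 0.73 to 1.22 for Ptk2b.

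The settings also moved all probes together. The median log2 difference of all tested probes was 0.17 on the scaled values, -0.22 without scaling, -0.31 when every non-control probe entered the percentile and -0.10 with quantile normalization. Relative to that median, the Cdh2 difference was -1.13 on the scaled values and without scaling, -0.96 with quantile normalization and -0.85 with normexp. The Ptk2b difference relative to the median was 1.05 on the scaled values and without scaling, 1.28 with quantile normalization and 0.62 with normexp. Settings that only rescale whole arrays shift each probe and the median alike, so they could not move these values. Taking off the median gave a range over the settings of -1.18 to -0.85 for Cdh2, narrower than before. For Ptk2b it gave 0.62 to 1.28, which is wider. Both ranges come from the settings that do more than rescale whole arrays. Their ends at -0.85 and 0.62 are those of normexp, whose offset shrinks differences.

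**Figure D3:**
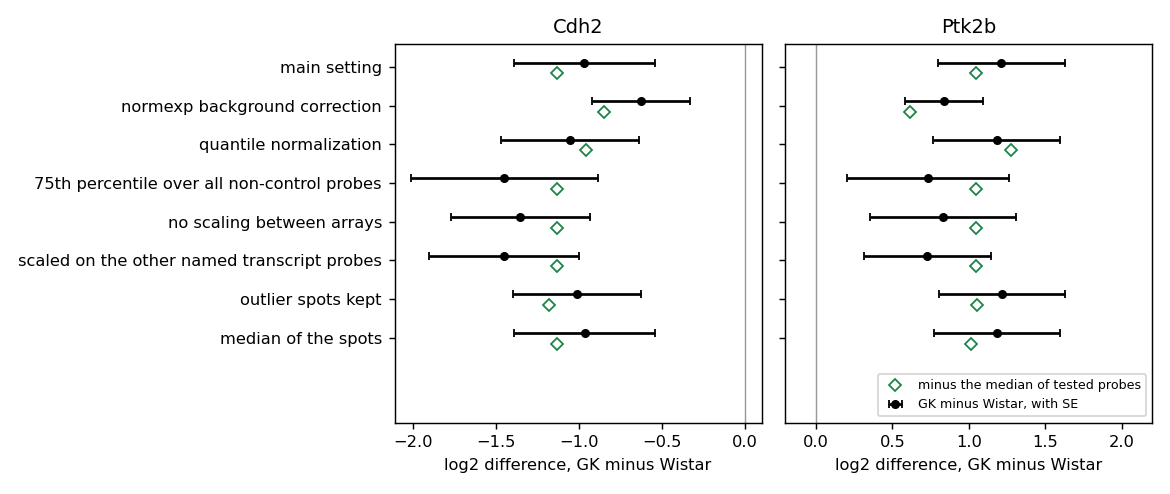
Log2 difference, GK minus Wistar, of Cdh2 (left) and Ptk2b (right) under the main setting and 7 others (rows), as black points with the SE from the 3 arrays of each strain, and as green diamonds after the median difference of all tested probes is taken off. Black points run from -1.45 to -0.62 for Cdh2 and from 0.73 to 1.22 for Ptk2b, while the diamonds run from -1.18 to -0.85 for Cdh2 and from 0.62 to 1.28 for Ptk2b.

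The ratio of the signals within an array is free of any factor that scales a whole array. The log2 ratio of Cdh2 over Ptk2b was -1.39, -1.29 and -0.81 on GK 1, 2 and 3, against 0.68, 0.40 and 1.97 on Wistar 1, 2 and 3. The strains did not overlap, and the gap between GK 3 and Wistar 2 was 1.21. The mean ratio was -1.16 ± 0.31 in GK and 1.02 ± 0.83 in Wistar (SD, n = 3 each), a difference of -2.18 (SE 0.51). It was -1.46 with normexp, whose offset shrinks it, and -2.24 with quantile normalization. Only the change of this ratio between arrays has a meaning, since probes of different sequence bind with different strength. On these arrays the signals differed unequally between the strains, and the ratio does not tell which of them differed. The genes were chosen with these values known, so nothing is read from the direction, size or gap of the ratio difference.

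Among all tested probes both genes lay towards the ends of the distribution. Of 11358 probes, 382 (3.36%) had a log2 difference at or below that of Cdh2. At or above that of Ptk2b there were 483 (4.25%). Of the 41 named transcript probes, covering 29 genes, that were called on each of the 6 arrays, Cdh2 had the lowest difference, and 6 including Ptk2b had one at or above that of Ptk2b. The genes were chosen with these values known, so nothing is read from these shares and ranks. The median of these 41 probes was 0.35, against 0.17 for all tested probes. On the scaled values all GK arrays lay above all Wistar arrays in 13 of the 41, and below in 0. Over all tested probes the shares were 12.5% above and 5.21% below. That balance turned with the scaling, and the count among the 41 is given for this scaling only.

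**Figure D4:**
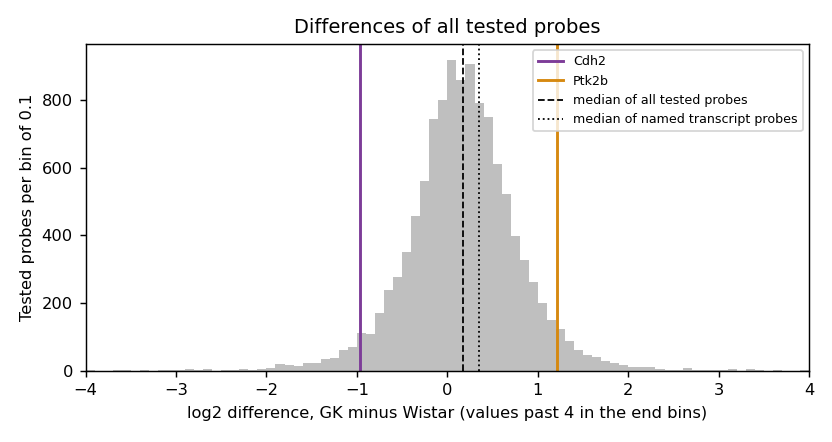
Number of tested probes (y axis) by log2 difference, GK minus Wistar (x axis, bins of 0.1), with lines at Cdh2 (-0.97), Ptk2b (1.21), the median of all tested probes (0.17) and the median of the 41 named transcript probes (0.35). Both genes lie in the outer parts of the distribution, with many probes beyond each.

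The named transcript probes whose pattern over the 6 arrays was nearest to each gene were found by the root mean square of the differences between centred log2 values, among 40 candidates. For Ptk2b the nearest was Slc28a2, a sodium-coupled nucleoside transporter, at 0.29. One of the 3 Gapdh probes, a glycolytic enzyme, followed at 0.37, and Odf2l, named for its likeness to a sperm tail protein, at 0.39. The median over the candidates was 0.69. All of these were lowest on Wistar 3 and next lowest on Wistar 2, as Ptk2b was. Their log2 differences between the strains were 1.32 for Slc28a2, 0.75 for that Gapdh probe and 0.83 for Odf2l. The other Gapdh probes had differences of 0.59 and 1.26, the second from a probe well above background on 3 of the 6 arrays.

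No candidate followed Cdh2 as closely. The nearest were 1 of the 3 probes of Pgk1, a glycolytic enzyme, at 0.58 and 2 of the 3 probes of Sdha, a subunit of succinate dehydrogenase, at 0.60 and 0.61. A flat line through the Cdh2 mean lies at 0.64, so these are little nearer to it than no variation at all. The Sdha probes are near Cdh2 mainly by varying little, with root mean square deviations from their own means of 0.16 and 0.20. Cdh2 and Ptk2b were 1.21 apart by the same measure. The log2 differences between the strains were -0.43 for that Pgk1 probe, and -0.21 and -0.27 for those Sdha probes. The other Pgk1 probes had differences of 0.10, of opposite sign, and -0.05, the second from a probe well above background on 0 arrays. The remaining Sdha probe had -0.59 and was well above background on 3 of the 6 arrays.

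**Figure D5:**
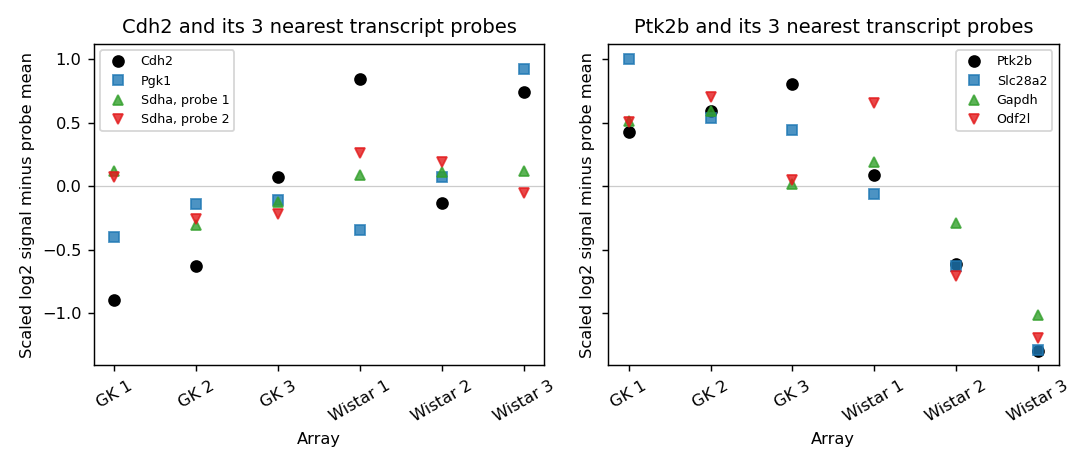
Scaled log2 signal minus the probe's own mean (y axis) on the 6 arrays (x axis) for Cdh2 (left) and Ptk2b (right), in black, with the 3 nearest named transcript probes of each in colour. The neighbours of Ptk2b share its low values on Wistar 2 and Wistar 3, whereas those of Cdh2 stay nearer to 0 than Cdh2 on GK 1 and GK 2.

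The arrays themselves were of unequal brightness. Over all probes the median processed signal lay between 2.43 and 7.87 on the GK arrays and between 2.61 and 3.41 on the Wistar arrays, and GK 2 had the highest median. It stood apart with 14459 probes well above background against 9781 to 12189 on the other 5, yet its 75th percentile over the always-detected probes was the second lowest of the 6. Without GK 2 the log2 difference was -0.90 for Cdh2 and 1.22 for Ptk2b. Correlations between arrays across the tested probes ran from 0.873 to 0.969. The number of arrays limits the precision of each value above.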

How the data were processed

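Islet RNA of 3 GK and 3 Wistar samples was end-labelled with Cy3 and hybridised to 1-colour Agilent arrays, per the labels' protocols. The deposited scanner files hold spot intensity values from Feature Extraction 11.0.1.1, per the file headers. The processed signal is background-subtracted within the array, and its percentiles differed between arrays. Of 42734 spots per array, 1417 were controls and were left out. Gene names came from RefSeq accessions. Log2 processed signals of spots without feature outlier flags were averaged per probe and scaled to each array's 75th percentile. A probe counted as well above background on an array where at least 50% of its spots did. Probes well above background on at least 3 arrays were fitted with limma 3.58.1 (lmFit, eBayes, Benjamini-Hochberg) in R 4.3.3, tested on simulated data. Slides were taken from the scan identifier in the file headers. Normexp used an offset of 50 on median spot signals. Nearest probes were the 3 named transcript probes with the smallest root mean square difference. The deposited matrix and comparison table hold piRNA probes only and were not used. The genes, lists and rules were chosen with earlier results of these data known.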

Additional observations from a re-analysis of the deposited data

How the results depend on the processing

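The log2 differences of Cdh2 and Ptk2b kept their sign in all 16 alternatives each. They moved by less than the SD between arrays pooled over the strains (0.52 for Cdh2 and 0.51 for Ptk2b). Not all of these alternatives are separate checks. The slide as a block and within slide 1 gave the same values (-1.38 for Cdh2 and 1.03 for Ptk2b), because slide 2 holds GK samples only. The authors' matrix holds neither probe and no listed adhesion gene was on the array, so those alternatives gave no value. Deviations of same-numbered arrays correlated at -0.03, 0.04 and 0.04, against -0.17 to 0.09 for arrays of different number. These values gave no sign that replicate numbers pair the samples, but they cannot exclude it. The replicate block holds each number once per strain, so it could not move the differences, which stayed at -0.97 for Cdh2 and 1.21 for Ptk2b. It took limma's 5 calls to 0 (1273 at an unadjusted p under 0.05).

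Limma called 15 probes with normexp, 14 when every non-control probe entered the percentile, 8 when outlier spots stayed in, 8 under eBayes with a robust trend and 2 among probes called on each array. It called 0 with quantile normalization (1005 at an unadjusted p under 0.05), with the slide as a block (417), within slide 1 (390) and without a filter on dim probes (2510). The main fit had 1233 probes at an unadjusted p under 0.05, and the fit without a filter tested 39885 probes where the main fit tested 11407. Leaving out 1 array gave 0 to 21, with 21 without GK 1. Probes with all GK arrays above all Wistar arrays, 1415 in the main setting, numbered 2573 with normexp, 741 with quantile normalization, 229 with every non-control probe in the percentile, 354 without scaling, 155 with scaling on the other transcript probes and 3624 without a filter. Probes with all GK arrays below, 592 in the main setting, numbered 347, 1196, 1920, 1494 and 3031 under these settings in the same order. Without a filter there were 3624 above and 844 below. These were drawn from the 39886 non-control probes and not from the 11358 that passed the filter, so the counts are not comparable with the others. Leaving out 1 array, an alternative chosen after seeing the data, gave 1667 to 3371 above and 798 to 1691 below. With fewer arrays to separate, these counts could only stay or rise, so their rise says nothing about the array left out. The cause of the other changes was not tested.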
